A study of Mus musculus with 6 samples.

Results

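The enzymes that carry glucose to pyruvate, branch it into the pentose phosphate pathway, store it as glycogen or decide the fate of pyruvate were followed in RNA-Seq data of TuBo cells, a mammary tumor line of BALB/c-MMTV-NeuT mouse origin, in which the mammary tumor virus promoter drives the rat Neu oncogene. The list holds 43 genes, chosen by symbol from the 21960 genes of the deposited counts, and each of the 43 was found. Mock cells (3 libraries) were compared with p140Cap cells (3 libraries), which carry a retroviral p140Cap cDNA with puromycin selection and are a pool of several single-cell clones. Whether mock cells were also cloned was not stated, and the deposited labels call the samples mice in one place and cell lines in another. A difference below therefore compares pooled clones with mock cells of the same line, and p-values measure the spread between libraries, which may be technical.

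Glycolysis splits glucose into pyruvate in the cytosol and yields ATP, and many tumor cells run it at a high rate even with oxygen present. Phosphofructokinase is its main point of control, and the PFKFB enzymes make and remove the sugar bisphosphate that activates it. Pyruvate is either reduced to lactate by lactate dehydrogenase or carried into mitochondria and oxidized by pyruvate dehydrogenase, which the PDK kinases switch off. The pentose phosphate pathway uses glucose phosphate to make NADPH and ribose, and glycogen is the storage form of glucose.

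Reads on genes numbered 13770385 to 15364850 in p140Cap and 33058719 to 75506562 in mock libraries. Srcin1, the gene of p140Cap, was at 15.6, 12.8 and 16.6 CPM (reads per 1000000 reads of the library after edgeR's TMM scaling) in mock libraries and at 2265, 2520 and 2244 CPM in p140Cap libraries, as the labels say. The summed level of 7 mammary epithelial markers was 5700 to 6110 CPM in mock and 6610 to 6850 CPM in p140Cap libraries, and the immune markers Ptprc, Cd3e and Adgre1 were at 0 reads in every library. Summed over the immune markers, the level was 2.04 to 2.34 CPM in mock and 3.23 to 4.09 CPM in p140Cap libraries, and 5 fibroblast markers summed to 9.97 to 10.5 CPM and 11.3 to 14.1 CPM, with Col1a2 and Dcn at 0 reads. The part of such cells in the results below was not tested. With all libraries thinned to the smallest total, 25 listed genes were called higher and 7 lower, as against 25 and 8 below. In bulk RNA, a lower level in each cell and fewer cells that express a gene cannot be told apart.

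Among the 40 listed genes with enough reads for a test, 25 were higher and 8 were lower in p140Cap cells, and 7 were not called. A call here means a p under 0.05 by edgeR's quasi-likelihood test after Benjamini-Hochberg adjustment over all 11800 genes tested. The shares of the list are 62.5% higher and 20% lower. Of all genes tested, 71.1% were called, 35.2% higher and 35.9% lower. With a change of at least 0.5 log2 units also required, 15 of the 40 were higher, or 37.5%, against 15.3% of all genes tested, and 2 were lower, against 15.5%. The median log2 fold change of the 40 genes was 0.30, and over all genes tested it was 0.00. The normalized values of both groups did not overlap for 24 genes that were higher and 8 that were lower in p140Cap cells, and this held for 36.3% and 37.2% of all genes tested. Each of the 40 genes had at least 39 reads in every library, so none entered the test through a single group.

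The calls were also counted by branch of the pathway, and differences between branches were not tested. Each count is to be read beside the shares of all genes tested, 35.2% called higher and 35.9% called lower. Of 16 tested genes from glucose uptake to pyruvate kinase, 15 were higher and 1 was lower. Of the 7 pentose phosphate genes, 0 were higher and 4 were lower by the same test, and 0 were higher at an unadjusted p under 0.05, by DESeq2 or by limma-voom. One of the 4, G6pdx, lost its call with the replicate block, in thinned libraries and without 5 of the 6 libraries, which leaves 3 of 7 lower, where 35.9% of all genes tested were lower. Of the 4 PFKFB genes, 2 were higher, 1 was lower and 1 was not called. Among the 4 tested genes of glycogen metabolism, 3 were higher and 1 was lower, and among the 9 tested genes of lactate and pyruvate metabolism, 5 were higher and 1 was lower. In the per-library median of all 40 genes, set against the mean of the mock libraries, mock libraries lay between -0.05 and 0.06 log2 units and p140Cap libraries between 0.26 and 0.33. Mock replicate 2 was the lowest and mock replicate 3 the highest mock library in this median.

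**Figure D1:**
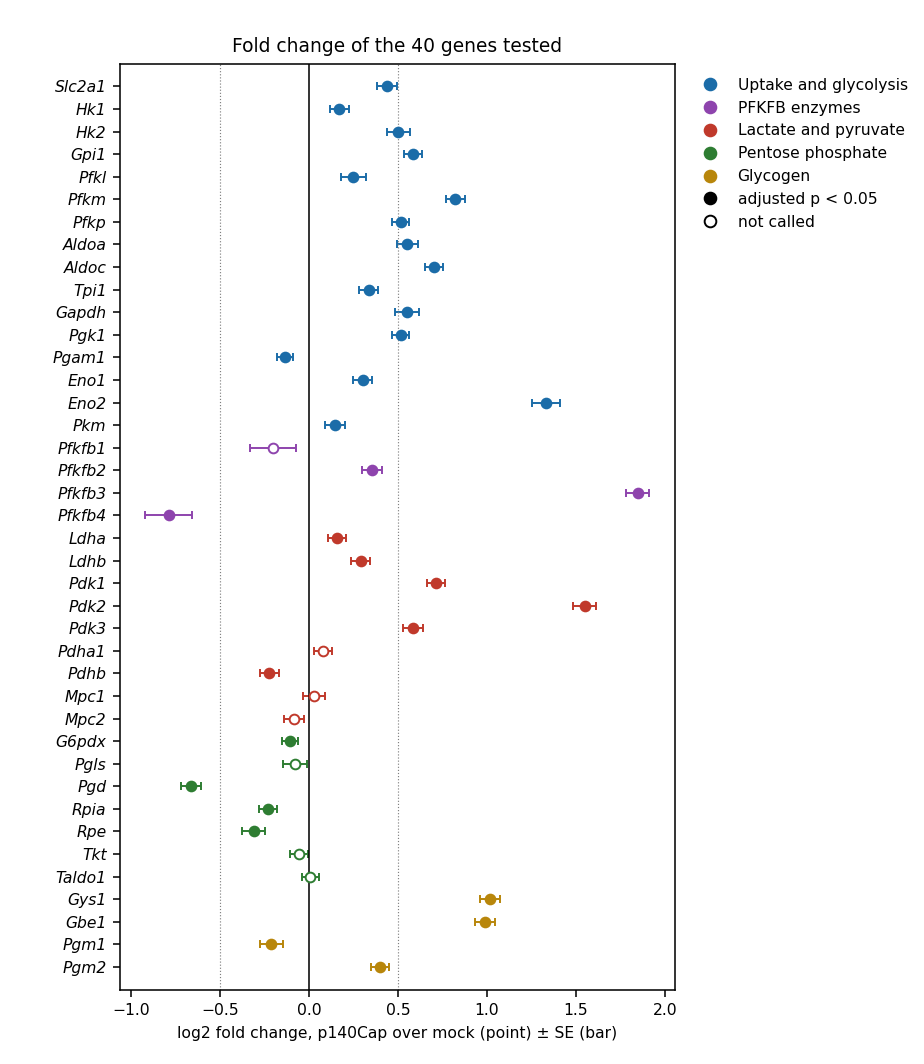
Log2 fold change of p140Cap over mock cells (x axis) for the 40 genes tested, in pathway order (y axis), with bars for the SE of edgeR's quasi-likelihood test, filled points for genes called at an adjusted p under 0.05 and dotted lines at 0.5 log2 units on either side of 0. Blue points (uptake and glycolysis) lie right of 0 except Pgam1, green points (pentose phosphate) lie left of or at 0, and Pfkfb3, Pdk2 and Eno2 lie farthest right.

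The 4 called genes with the largest change were Pfkfb3, Pdk2, Eno2 and Gys1, all higher in p140Cap cells, and their promoters are shown so that the letters before each start site can be compared. Sequences are from RefSeq on GRCm38.p6, in lower case, and hold the 250 bases before the most upstream start with a promoter entry, 5′ to 3′ on the strand of the gene. For Pfkfb3, whose annotated gene reaches into this window, 30 bases around the motif are shown. Capitals mark ACGTG or GCGTG on either strand, the core of the motif bound by hypoxia-inducible factors. The E-box CACGTG holds ACGTG on both strands and is then in capitals as a whole.
Pfkfb3 (chr2:11553972-11554001, minus strand): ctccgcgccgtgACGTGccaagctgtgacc
Pdk2 (chr11:95041372-95041621, minus strand): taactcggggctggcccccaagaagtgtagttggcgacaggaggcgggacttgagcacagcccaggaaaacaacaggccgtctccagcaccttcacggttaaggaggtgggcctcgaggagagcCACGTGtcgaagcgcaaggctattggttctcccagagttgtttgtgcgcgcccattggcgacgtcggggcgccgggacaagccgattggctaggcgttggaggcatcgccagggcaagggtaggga
Eno2 (chr6:124769674-124769923, minus strand): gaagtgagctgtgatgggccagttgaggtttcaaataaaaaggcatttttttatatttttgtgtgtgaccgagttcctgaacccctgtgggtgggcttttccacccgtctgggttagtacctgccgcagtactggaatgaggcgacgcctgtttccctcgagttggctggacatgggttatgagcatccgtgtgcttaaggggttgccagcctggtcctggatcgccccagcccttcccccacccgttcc
Gys1 (chr7:45434589-45434838, plus strand): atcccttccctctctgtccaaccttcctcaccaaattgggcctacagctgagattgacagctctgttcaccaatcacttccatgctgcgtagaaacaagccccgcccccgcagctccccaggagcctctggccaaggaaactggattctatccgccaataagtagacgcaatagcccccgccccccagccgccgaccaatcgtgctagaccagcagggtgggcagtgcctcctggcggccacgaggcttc

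The Pfkfb3 window of 250 bases held 1 core, 60 bases before the start, and the Pdk2 window held an E-box that begins 126 bases before the start. The Eno2 and Gys1 windows held neither core in these 250 bases. Among the promoter windows of 300 bases (250 before and 50 after each annotated start) that matched 42 of the 43 genes, 46 of 63 held ACGTG or GCGTG, or 73%, with windows of nearby starts overlapping in part. The share was 62.6% over promoters of the genes tested and 43.8% over all 32851 promoters. For genes that were higher by at least 0.5 log2 units, 16 of 24 windows held the core, or 66.7%. ACGTG alone was in 24 of 63 windows of the listed genes, or 38.1%, and in 12 of the 24, or 50%, against 25.6% over promoters of the genes tested and 19.6% over all promoters. The E-box alone was found in 5 of 63 windows of the listed genes, or 7.94%, and in 3 of the 24, or 12.5%, against 9.94% over promoters of the genes tested and 7.15% over all promoters. A match is a run of letters and was not tested as a binding site.

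Glucose enters through the SLC2A transporters and is trapped by hexokinases. Slc2a1 (GLUT1) was at 166, 157 and 165 CPM in mock and 210.4, 243 and 209 CPM in p140Cap libraries, and all p140Cap libraries were above all mock libraries (log2 fold change 0.44, adjusted p = 3.53e-06, SE 0.06; edgeR's quasi-likelihood test, as for every adjusted p below). Slc2a3 (GLUT3) was nearly absent, with 9, 5 and 1 reads in mock libraries and 1, 0 and 0 reads in p140Cap libraries, too few for a test. Pooled over libraries, this gives a level 4.36 times higher in mock cells (exact 95% interval for counting error 0.671 to 183), so no difference was detectable at this depth. Hk1, the more abundant hexokinase, was at 463, 448 and 484 CPM in mock and 499, 563 and 508 CPM in p140Cap libraries and rose slightly (log2 fold change 0.17, adjusted p = 0.0098, SE 0.05). Hk2, the isozyme often raised in tumors, was at 70.5, 61.0 and 70.0 CPM in mock and 93.3, 103 and 88.8 CPM in p140Cap libraries. Its groups did not overlap, and it rose 1.41-fold (log2 fold change 0.50, adjusted p = 3.27e-06, SE 0.07), while alternatives placed its log2 fold change between 0.44 and 0.54.

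Glucose phosphate isomerase, encoded by Gpi1, was at 1043, 993 and 1099 CPM in mock and 1532, 1644 and 1530.1 CPM in p140Cap libraries. Its log2 fold change was 0.59 (adjusted p = 3.14e-08, SE 0.05), so it rose in p140Cap cells, and its lowest p140Cap library was above its highest mock library. The 3 subunits of phosphofructokinase all rose, to unequal extents. Pfkm, the muscle type, was at 64.3, 61.1 and 66.0 CPM in mock and 107, 120.4 and 111 CPM in p140Cap libraries, a 1.77-fold rise (log2 fold change 0.82, adjusted p = 1.01e-09, SE 0.05). Pfkp, the platelet type, was at 692, 666 and 699.5 CPM in mock and 963, 1024 and 954 CPM in p140Cap libraries (log2 fold change 0.52, adjusted p = 6.32e-08, SE 0.05). Pfkl, the liver type, was at 656, 593 and 735 CPM in mock and 749, 845 and 765 CPM in p140Cap libraries, with the lowest p140Cap library just above the highest mock library (log2 fold change 0.25, adjusted p = 0.00348, SE 0.07). Per kb of transcript, Pfkl and Pfkp were the main subunits in mock cells at 161 and 159 CPM per kb, and Pfkm was at 16.0 CPM per kb.

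The PFKFB family, which sets the activator of phosphofructokinase, held both the largest rise and the largest fall of the list. Pfkfb3 (ENSMUSG00000026773; chr2:11471430-11554071 of GRCm38.p6), the isozyme that mainly makes the activator, was at 23.1, 20.0 and 21.2 CPM in mock and 81.1, 79.4 and 72.0 CPM in p140Cap libraries. Every p140Cap library was more than 3 times the highest mock library, and the gene rose 3.60-fold (log2 fold change 1.85, adjusted p = 8.3e-13, SE 0.06). Pfkfb4 was a rare transcript at 5.36, 4.83 and 5.68 CPM in mock and 3.03, 3.27 and 2.86 CPM in p140Cap libraries, with no overlap, and fell by 0.79 on the log2 scale (adjusted p = 5.2e-05, SE 0.13). Pfkfb2 was at 51.0, 47.6 and 45.9 CPM in mock and 64.7, 59.7 and 60.6 CPM in p140Cap libraries and rose (log2 fold change 0.35, adjusted p = 3.32e-05, SE 0.06). Pfkfb1 had a log2 fold change of -0.20 (95% interval -0.48 to 0.07, adjusted p = 0.173) and overlapped between groups, and without p140Cap replicate 1 it was called lower (adjusted p = 0.0463). In mock cells Pfkfb2 was the most abundant of the family at 15.7 CPM per kb against 3.80 CPM per kb for Pfkfb3, and in p140Cap cells they were at 20.1 and 13.7 CPM per kb.

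**Figure D2:**
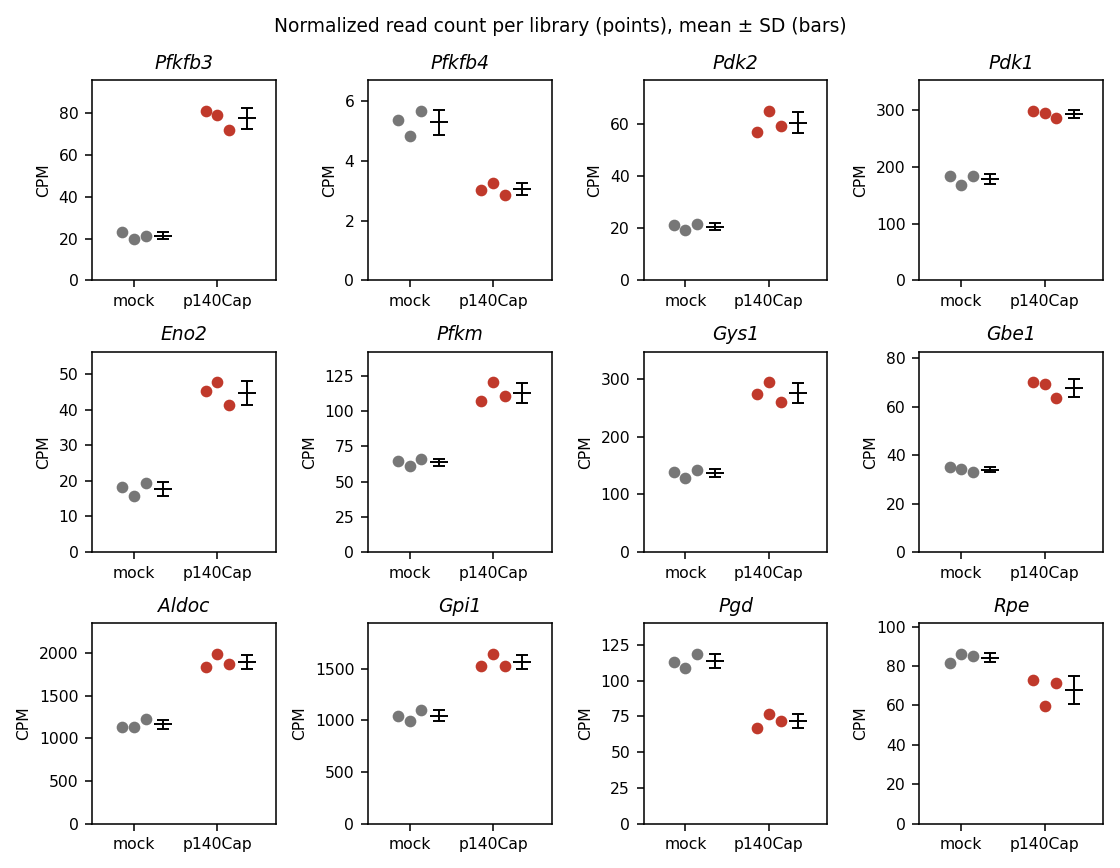
Normalized read count (CPM, y axis from 0, a scale of its own in each panel) of 12 genes in the 3 mock (grey) and 3 p140Cap (red) libraries, with 1 point per library and bars for mean ± SD. The groups do not overlap in any panel, with Pfkfb4, Pgd and Rpe lower and the other 9 genes higher in p140Cap cells.

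Aldolase, which cleaves the product of phosphofructokinase, rose in both measured forms. Aldoa was at 2223, 2102 and 2456 CPM in mock and 3184, 3530.3 and 3227 CPM in p140Cap libraries (log2 fold change 0.55, adjusted p = 3.48e-07, SE 0.06). Aldoc, a form known from brain, was at 1127, 1136 and 1226 CPM in mock and 1830.1, 1986 and 1867 CPM in p140Cap libraries (log2 fold change 0.70, adjusted p = 3.17e-09, SE 0.05). For both genes the p140Cap libraries lay above all mock libraries. Tpi1, which interconverts the products of aldolase, was at 2037, 1907 and 2180.0 CPM in mock and 2582, 2561 and 2579 CPM in p140Cap libraries (log2 fold change 0.33, adjusted p = 2.13e-05, SE 0.05).

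Gapdh, the first enzyme of the energy-yielding steps and a common reference transcript, was at 698, 654 and 778 CPM in mock and 988, 1131 and 1002 CPM in p140Cap libraries. It rose 1.47-fold (log2 fold change 0.55, adjusted p = 1.06e-06, SE 0.06), with no overlap between groups. Pgk1, which makes the first ATP of these steps, was at 1939, 1889 and 2007 CPM in mock and 2818, 2705 and 2814 CPM in p140Cap libraries (log2 fold change 0.51, adjusted p = 4.31e-08, SE 0.05). The next enzyme, phosphoglycerate mutase, went the other way. Pgam1 was at 1023, 1008 and 1011 CPM in mock and 908, 953 and 907 CPM in p140Cap libraries, and it fell by 0.14 on the log2 scale (adjusted p = 0.0133, SE 0.05). This call was lost without p140Cap replicate 1 (adjusted p = 0.0717) and without p140Cap replicate 3 (adjusted p = 0.0512). Pgam1 is the sole gene of the list on chromosome 19, where the median log2 fold change of 423 tested genes was -0.33, against 0.01 over genes of the other chromosomes, and the part of its position in the decrease was not tested.

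Enolase was represented by a common and a rare form. Eno2 (ENSMUSG00000004267; chr6:124760053-124769673 of GRCm38.p6), the neuronal type, was at 18.3, 15.6 and 19.4 CPM in mock and 45.1, 47.7 and 41.2 CPM in p140Cap libraries, with every p140Cap library more than 2 times the highest mock library. It rose 2.52-fold (log2 fold change 1.33, adjusted p = 2.93e-10, SE 0.08). Eno1 was at 962, 931 and 1048 CPM in mock and 1175, 1254 and 1193 CPM in p140Cap libraries (log2 fold change 0.30, adjusted p = 7.68e-05, SE 0.05). Reads of Eno1 are uncertain, since the intronless copy Eno1b shares 99.5% of 1736 aligned bases with it and took 47.7% of the reads of both genes in mock cells and 47.9% in p140Cap cells. With the reads of both added together, the log2 fold change of Eno1 was 0.31. Pkm, pyruvate kinase and the most abundant transcript of the list per kb, was at 5489, 5059 and 5926 CPM in mock and 5906, 6322 and 6033 CPM in p140Cap libraries. The groups overlapped, since mock replicate 3 was above p140Cap replicate 1, and the log2 fold change was 0.15 (adjusted p = 0.0254, SE 0.06). The call of Pkm was lost when any of 4 libraries was left out, with adjusted p = 0.0664 without mock replicate 1, 0.156 without mock replicate 2, 0.0582 without p140Cap replicate 2 and 0.0537 without p140Cap replicate 3.

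**Figure D3:**
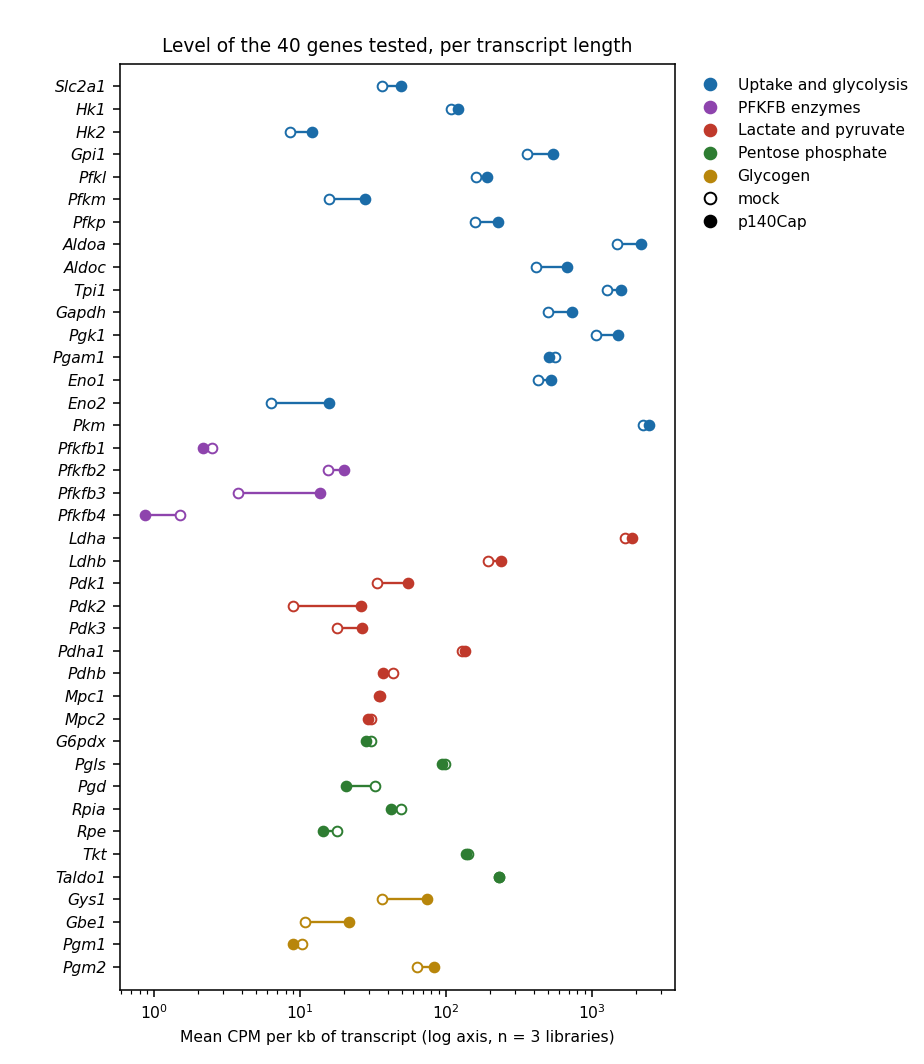
Mean CPM per kb of the canonical transcript (log x axis, n = 3 libraries) in mock cells (open) and p140Cap cells (filled) for the 40 genes tested, joined by a line. Levels run from 0.876 CPM per kb for Pfkfb4 to 2486 CPM per kb for Pkm, both in p140Cap cells, and the longest lines belong to genes of low or middle level such as Pfkfb3, Pdk2 and Eno2.

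Of the lactate dehydrogenase subunits, Ldha, which favours lactate formation, was at 2702, 2549.5 and 2836 CPM in mock and 2994, 3014 and 3013 CPM in p140Cap libraries (log2 fold change 0.16, adjusted p = 0.00828, SE 0.05). Its call was lost without mock replicate 2 (adjusted p = 0.0566). Ldhb was at 284, 290.0 and 321 CPM in mock and 354, 377 and 364 CPM in p140Cap libraries (log2 fold change 0.29, adjusted p = 0.000129, SE 0.05), so both subunits were higher, by little.

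The kinases that switch off pyruvate dehydrogenase rose, all 3 of those detected. Pdk2 (ENSMUSG00000038967; chr11:95026258-95041371 of GRCm38.p6) was at 21.2, 19.2 and 21.5 CPM in mock and 56.9, 64.9 and 59.3 CPM in p140Cap libraries, with no overlap between groups. It rose 2.93-fold (log2 fold change 1.55, adjusted p = 5.61e-12, SE 0.06). Pdk1, the most abundant of them per kb and a known hypoxia-responsive gene, was at 184, 168 and 183 CPM in mock and 299, 294 and 286 CPM in p140Cap libraries (log2 fold change 0.71, adjusted p = 1.88e-09, SE 0.05). Pdk3 was at 43.5, 45.2 and 43.7 CPM in mock and 70.9, 62.5 and 65.0 CPM in p140Cap libraries (log2 fold change 0.59, adjusted p = 8.05e-08, SE 0.06). Each p140Cap library was above each mock library for all 3 kinases. Pdk4 had 0 reads in every library, and a count of 0 allows a level of up to 0.0201 CPM (mock) and 0.069 CPM (p140Cap) (3 reads over the libraries of a group, counting error only).

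Of 2 subunits of pyruvate dehydrogenase and 2 of the carrier that brings pyruvate into mitochondria, 0 were called higher and Pdhb was called lower. Pdha1, the catalytic alpha subunit, was at 359, 383 and 366 CPM in mock and 397, 365 and 408 CPM in p140Cap libraries, with overlapping groups and a log2 fold change of 0.08 (95% interval -0.03 to 0.19, adjusted p = 0.185). It was called higher without p140Cap replicate 2 (adjusted p = 0.0323). Pdhb, the beta subunit, fell from 66.2 ± 1.90 CPM (mock) to 56.7 ± 3.25 CPM (p140Cap, mean ± SD, n = 3 per group), a log2 fold change of -0.22 (adjusted p = 0.00165, SE 0.05). Mpc1 was at 37.4, 41.4 and 40.1 CPM in mock and 40.9, 38.4 and 41.7 CPM in p140Cap libraries, a log2 fold change of 0.03 (95% interval -0.10 to 0.15, adjusted p = 0.688). Mpc2, its partner in the carrier, had a log2 fold change of -0.09 (95% interval -0.21 to 0.03, adjusted p = 0.179). Both carrier genes overlapped between groups.

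In the oxidative arm of the pentose phosphate pathway, the decrease was largest for Pgd, the second of its enzymes that make NADPH. Pgd was at 113, 109 and 119 CPM in mock and 66.6, 76.7 and 71.5 CPM in p140Cap libraries, with no overlap, and fell by 0.66 on the log2 scale (adjusted p = 2.37e-08, SE 0.06). G6pdx, the entry enzyme, changed from 181 ± 2.25 CPM (mock) to 168 ± 5.74 CPM (p140Cap, mean ± SD, n = 3 per group). Its log2 fold change of -0.11 (adjusted p = 0.046, SE 0.05) lay near the threshold, and the call was lost without each library except mock replicate 3, with adjusted p between 0.0581 and 0.133. Pgls, which acts between them, was at 88.8, 88.2 and 106 CPM in mock and 85.4, 92.2 and 89.2 CPM in p140Cap libraries, and its log2 fold change was -0.08 (95% interval -0.22 to 0.06, adjusted p = 0.291).

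Of the non-oxidative arm, which makes ribose phosphate and returns carbon to glycolysis, the enzymes next to ribulose phosphate fell and the carbon-transferring enzymes were not called. Rpe, the epimerase, fell from 84.3 ± 2.25 CPM (mock) to 68.0 ± 7.22 CPM (p140Cap, mean ± SD, n = 3 per group), a log2 fold change of -0.31 (adjusted p = 0.000373, SE 0.06). Rpia, the isomerase that yields ribose phosphate, fell from 90.6 ± 4.26 CPM (mock) to 77.2 ± 2.00 CPM (p140Cap, mean ± SD, n = 3 per group), a log2 fold change of -0.23 (adjusted p = 0.00078, SE 0.05). Taldo1, the most abundant gene of this arm per kb, was at 277, 292 and 306 CPM in mock and 292, 292 and 296 CPM in p140Cap libraries. Its log2 fold change was 0.01 (95% interval -0.10 to 0.11, adjusted p = 0.904). Tkt, transketolase, had a log2 fold change of -0.05 (95% interval -0.16 to 0.05, adjusted p = 0.354). Both genes overlapped between groups and both intervals spanned 0.

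Glycogen synthesis genes were among the largest rises. Gys1 (ENSMUSG00000003865; chr7:45434839-45456617 of GRCm38.p6), the glycogen synthase of most tissues, was at 139, 128 and 141 CPM in mock and 273, 294 and 259 CPM in p140Cap libraries, and the groups did not overlap. It rose 2.02-fold (log2 fold change 1.02, adjusted p = 1.01e-10, SE 0.06). Gbe1, the branching enzyme, was at 35.0, 34.3 and 32.9 CPM in mock and 70.1, 69.5 and 63.5 CPM in p140Cap libraries and rose 1.98-fold (log2 fold change 0.99, adjusted p = 1.55e-10, SE 0.06). Pygl, liver glycogen phosphorylase, had 0 reads in every library, with the same limits as for Pdk4.

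Phosphoglucomutase activity links glycogen to glycolysis, and the genes listed under it carry symbols in the counts that have since been swapped. The gene listed as Pgm2 (ENSMUSG00000025791, named Pgm1 in GENCODE M39) was at 152, 142 and 158 CPM in mock and 195, 208 and 193 CPM in p140Cap libraries and rose (log2 fold change 0.40, adjusted p = 3.61e-06, SE 0.05). The gene listed as Pgm1 (ENSMUSG00000029171, now Pgm2) fell from 24.7 ± 1.17 CPM (mock) to 21.4 ± 0.347 CPM (p140Cap, mean ± SD, n = 3 per group). Its log2 fold change was -0.21 (adjusted p = 0.00935, SE 0.07), and the call was lost without mock replicate 1 (adjusted p = 0.059).

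**Figure D4:**
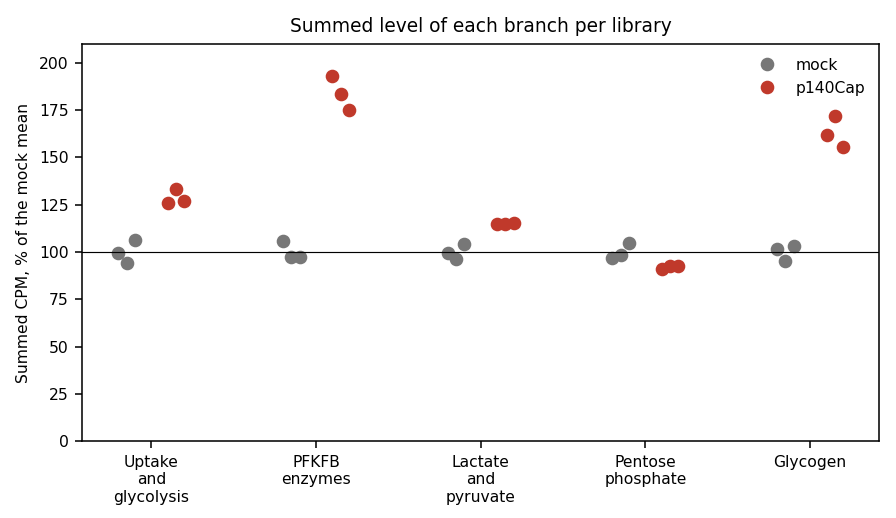
Summed CPM of all listed genes of a branch in each library, as a percentage of the mean of the mock libraries (y axis from 0), with 3 mock (grey) and 3 p140Cap (red) libraries per branch. The PFKFB and glycogen sums sit highest in p140Cap cells, and the pentose phosphate sum is the sole sum below the mock libraries.

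Summed over each branch, transcripts of glucose uptake and glycolysis took 1.90% ± 0.107 of all reads in mock cells and 2.38% ± 0.0720 in p140Cap cells (SD, n = 3 libraries each). In scaled counts their sum was 1.29 times as high in p140Cap cells. The same ratio was 1.84 for the PFKFB genes, 1.63 for glycogen genes and 1.15 for lactate and pyruvate genes, and it was 0.920 for the pentose phosphate genes. These sums rest mostly on the most abundant genes, so Pkm, Aldoa, Tpi1 and Pgk1 weigh most in the first, and Pfkfb2 and Pfkfb3 in the sum of the PFKFB genes. For all 43 genes, the share was 2.46% ± 0.126 of reads in mock cells and 3.00% ± 0.0729 in p140Cap cells (SD, n = 3 libraries each).

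Ratios of related genes within a library do not depend on how libraries are scaled, and 9 such pairs had enough reads. Pfkfb3 over Pfkfb2, per kb of transcript, was -2.03, -2.14 and -1.99 log2 units in mock cells and -0.56, -0.47 and -0.63 in p140Cap cells. The difference of 1.50 log2 units was the largest of the 9 pairs in size. Eno2 over Eno1 was -6.00, -6.18 and -6.04 in mock cells and -4.99, -5.00 and -5.14 in p140Cap cells, a difference of 1.03 log2 units. Reads of the copy Eno1b are not counted for Eno1 in these ratios, so the level of Eno2 relative to Eno1 is uncertain. Pdk1 over Pdk2 fell by 0.84 on the log2 scale, from a mean ratio of 3.80 to 2.13. Pfkm over Pfkl differed by 0.57, Hk2 over Hk1 by 0.33, Pfkp over Pfkl by 0.26, Aldoc over Aldoa by 0.15 and Ldhb over Ldha by 0.13 log2 units. For these 8 pairs the libraries of both groups did not overlap (two-sided exact permutation test, p = 0.1 each, the smallest p that 3 against 3 libraries allow, and 0.113 after Benjamini-Hochberg adjustment over the 9 pairs). Pdk3 over Pdk1 overlapped between groups, with a difference of -0.13 log2 units (exact permutation p = 0.2). Groups without overlap were common in these data, at 36.3% (higher) and 37.2% (lower) of all single genes tested. The share over other gene pairs was not counted.

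**Figure D5:**
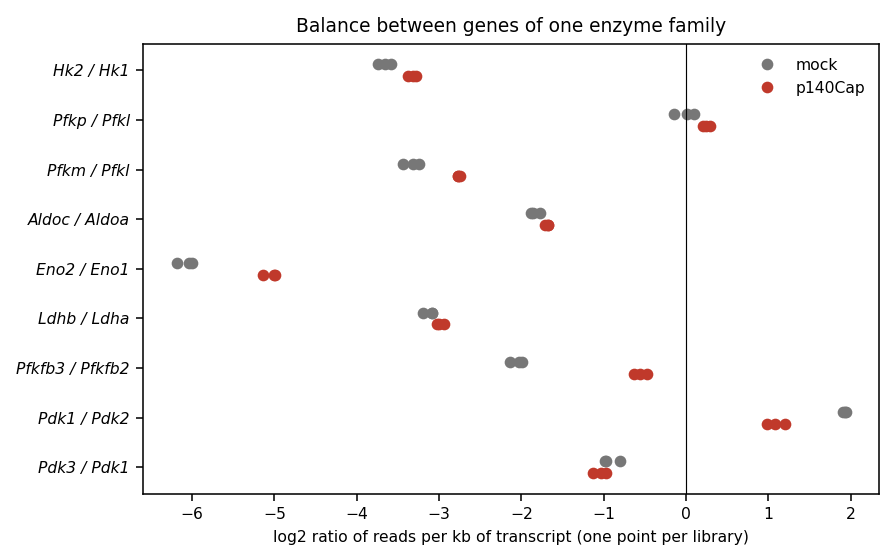
Log2 ratio of reads per kb of transcript between related genes (x axis), with 1 point per library, for 9 pairs (y axis) in mock (grey) and p140Cap (red) cells. The points of both groups are apart for all pairs except Pdk3 over Pdk1, and lie farthest apart for Pfkfb3 over Pfkfb2.

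A wider list of other genes of these pathways was also counted. It held 60 genes with counts, other isozymes and regulators, and 40 of these had enough reads. Of the 40, 18 were higher and 11 were lower in p140Cap cells, or 45% and 27.5%, against 35.2% and 35.9% of all genes tested.

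Both arrestin-like inhibitors of glucose uptake on this list rose. Txnip was at 42.2, 50.3 and 41.9 CPM in mock and 168, 153 and 163 CPM in p140Cap libraries (log2 fold change 1.85, adjusted p = 1.06e-12, SE 0.07). Arrdc4 was at 16.1, 17.6 and 17.9 CPM in mock and 40.7, 37.4 and 41.5 CPM in p140Cap libraries (log2 fold change 1.22, adjusted p = 1.22e-10, SE 0.07). Ldhd, the mitochondrial dehydrogenase of D-lactate, was at 54.2, 53.6 and 53.6 CPM in mock and 113, 117 and 114 CPM in p140Cap libraries (log2 fold change 1.09, adjusted p = 7.1e-12, SE 0.05). For these 3 genes each p140Cap library was more than 2 times each mock library.

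Of the transporters on the wider list, Slc2a8 (GLUT8) was at 11.2, 11.2 and 12.9 CPM in mock and 22.1, 27.7 and 23.5 CPM in p140Cap libraries (log2 fold change 1.07, adjusted p = 1.49e-08, SE 0.09). Slc2a6 (GLUT6) went the other way and was rare, at 3.12, 2.31 and 2.28 CPM in mock and 0.264, 0.817 and 0.294 CPM in p140Cap libraries. It had 239, 92 and 76 reads in mock and 4, 12 and 4 reads in p140Cap libraries, so it entered the test through the mock libraries alone. Its log2 fold change of -2.52 (edgeR adjusted p = 2.43e-06, SE 0.32) is given as a description. It lay between -3.24 without p140Cap replicate 2 and -2.22 without p140Cap replicate 1. With 10 reads or more asked of all libraries it was not tested, and 10 genes of the wider list were called lower in place of 11. Gapdhs, a testis form of Gapdh, stayed close to the detection limit, at 0.510, 0.427 and 0.631 CPM in mock and 1.38, 1.36 and 1.32 CPM in p140Cap libraries (log2 fold change 1.39, adjusted p = 0.000139, SE 0.26).

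Tigar, a phosphatase that removes the activator of phosphofructokinase and favours the pentose phosphate pathway, was at 8.17, 7.57 and 7.54 CPM in mock and 2.64, 3.20 and 2.94 CPM in p140Cap libraries. It fell by 1.42 on the log2 scale (adjusted p = 2.55e-08, SE 0.12), with no overlap between groups. Adpgk, a glucokinase that uses ADP, was at 40.0, 41.2 and 35.9 CPM in mock and 21.1, 19.0 and 20.9 CPM in p140Cap libraries and fell by 0.94 on the log2 scale (adjusted p = 5.9e-09, SE 0.07).

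Further genes of the wider list are named here after their values were seen. Pdhx, a structural component of the pyruvate dehydrogenase complex, had a log2 fold change of -0.84 (adjusted p = 1.1e-08, SE 0.07). Dld, the dihydrolipoamide dehydrogenase of that complex, had a log2 fold change of -0.40 (adjusted p = 6.69e-05, SE 0.07), and Pdp2, a phosphatase that switches the complex on, one of -0.52 (adjusted p = 4.66e-06, SE 0.07). These 3 fell, and the other genes of the complex and its phosphatases on the wider list did not. Pdpr, the regulatory subunit of the phosphatase, rose by 0.38 (adjusted p = 0.000244, SE 0.07) on the log2 scale. Dlat, the acetyltransferase of the complex, was at 0.06 (95% interval -0.04 to 0.17, adjusted p = 0.259) and Pdp1, the other phosphatase, at -0.08 (95% interval -0.31 to 0.14, adjusted p = 0.491), and Pdha2 had 0 reads in every library. Ugp2, which makes the UDP-glucose used by Gys1, rose by 0.51 (adjusted p = 1.54e-07, SE 0.05) on the log2 scale. H6pd, the counterpart of G6pdx in the endoplasmic reticulum, rose by 0.87 (adjusted p = 8.43e-09, SE 0.07) on the log2 scale, opposite in sign to G6pdx.

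Reads shared with other genes limit some of these counts. Exons of neighbouring genes overlap 18 of the 43 listed genes on the other strand (Hk1, Pfkl, Pfkm, Pfkp, Aldoa, Tpi1, Gapdh, Pfkfb1, Pfkfb2, Pdk2, Pdk3, Pdha1, Pdhb, Mpc2, G6pdx, Rpe, Gys1 and Pgm2) and 2 on the same strand (Pfkfb2 and Pgls), and the use of strand in counting was not stated. The same holds for Ldhd, Pdhx, Dld, Ugp2 and Adpgk of the wider list, which overlap a gene on the other strand. Pgk1-rs7, a copy of Pgk1, took 6.02% of the reads of both in mock cells and 5.39% in p140Cap cells, and with its reads added the log2 fold change of Pgk1 was 0.50. No single known copy of Gapdh took more than 0.136% of the reads of both.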

How the data were processed

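RNA of mock and p140Cap TuBo cells was made into 3 libraries per group, stranded and poly(A)-selected, for Illumina sequencing. The authors deposited raw counts, the whole number of reads on each gene, unnormalized, by replicate, and named by symbol and Ensembl identifier. STAR 2.5, RSEM and mm10 are named in the submitters' processing notes, and docker4seq in the study's methods. Another mouse build, GRCm39, is named in the study's data availability statement. These parts of the study did not state the annotation release. RSEM splits reads between similar genes, which bears on Eno1 and Pgk1. All columns matched 1 sample by name.

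Counts were tested in R 4.3.3 with edgeR 4.0.16 (TMM factors, filterByExpr, quasi-likelihood test with group as sole term, Benjamini-Hochberg adjustment over 11800 genes, threshold 0.05), after the script had been tested on simulated data. CPM values use TMM-scaled library sizes, and CPM per kb uses the canonical transcript of GENCODE M39. The SE of a fold change is its size in log2 units over the square root of F. The common coefficient of biological variation was 4.57%. Library totals were 13770385 to 75506562 reads, and intervals from pooled reads cover counting error only. Over pairs of libraries of a group, the mean chi-square per gene was 1.75 to 10.7, where sampling noise gives about 1, so no library was a copy of another. Positions and promoters are from RefSeq on GRCm38.p6, the build named mm10, and were not used to count reads. Copies sharing at least 95% of 300 or more bases were found with BLAST 2.17.0.

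The listed genes were fixed by name with earlier results of these data known, as were the wider list and the tests. Values in every library are given for each listed gene changed by at least 0.5 log2 units, for the most abundant gene of each step and for untested genes by reads, and the 8 called genes of the wider list with the largest change are named. Pdhx, Dld, Pdp2, Pdpr, Dlat, Pdp1, Pdha2, Ugp2, H6pd, Pygb and Pygm were named after their values were seen. Rpel1 was not analysed here. Alternatives were RLE factors, no filter, at least 10 reads in every library, DESeq2 1.42.0, limma-voom 3.58.1, each library left out, a replicate block and thinning to the smallest total. Adding the reads of near-identical copies was chosen after seeing the data.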

Additional observations from a re-analysis of the deposited data

How the results depend on the processing

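Under 14 alternatives, the number of listed genes called higher lay between 23 and 25, the number called lower between 6 and 8, the number higher by at least 0.5 log2 units between 11 and 15, and the median log2 fold change between 0.26 and 0.33. Of the 40 genes tested, 30 kept their direction and their side of the threshold under all of these. The other 10 are Pkm, Ldha, Pgam1, Pgm1, G6pdx, Pdha1, Pfkfb1, Pgls, Taldo1 and Mpc1, and the first 7 of these moved across the threshold with libraries left out, as given above. Apart from libraries left out, the one further call lost was G6pdx, with the replicate block (adjusted p = 0.089, edgeR) and with libraries thinned to the smallest total (adjusted p = 0.0692). Genes near 0 changed sign without a call. Mpc1 was at -0.0024 without a filter and at -0.0069 in thinned libraries, and Taldo1 at -0.023 and -0.0082. With each library left out, the log2 fold change lay between -0.018 and 0.060 for Mpc1, between -0.031 and 0.038 for Taldo1 and between -0.12 and 0.0025 for Pgls. The cause was not tested. The labels' replicate numbers did not pair the libraries, with correlations of deviations from the group means of -0.0061, -0.25 and -0.054, and with the replicate block 25 genes were called higher and 7 lower. Over all promoters, the share with a core, with ACGTG and with the E-box was 38.6%, 16.6% and 6.02% when only the bases before the start were read. The same shares were then 56.5%, 21.8% and 8.34% over promoters of the genes tested, 73%, 31.7% and 7.94% over windows of the listed genes, and 66.7%, 41.7% and 12.5% for those higher by at least 0.5 log2 units. Asking for 10 reads or more in all libraries left Slc2a6 untested. Slc2a3, Slc2a6, Gapdhs and Pygm had few reads in p140Cap cells, which limits their precision.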
